A study of Mus musculus with 12 samples.

Results

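Telomerase adds telomeric repeats to chromosome ends, and 10 genes of its subunits and assembly factors were taken up here: Tert, Terc, Dkc1, Nop10, Nhp2, Gar1, Naf1, Wrap53, Tep1 and Pinx1. A gene entered when a probe set of the array was annotated with its symbol and no other, and the brightest such probe set would have stood for it. That left 9 of the 10 genes, each with 1 probe set, out of 19938 genes named this way. Tep1 is not analysed here.

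The enzyme copies repeats from an RNA template. Its catalytic protein is the reverse transcriptase TERT, and the template lies in the RNA made from Terc, which in mouse nomenclature is also called mTR. The RNA carries an H/ACA fold, a hairpin structure shared with a class of small nucleolar RNAs, and is held by the same 4 proteins as those RNAs. Most differentiated human cells silence TERT, whereas many mouse tissues and cultured mouse fibroblasts keep telomerase activity.

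The samples were 12 cultures of mouse embryonic fibroblasts, 3 in each of 4 groups, from male C57BL/6J embryos of stage E12.5-14.5, with RNA taken at passage 5 and hybridised to 1 array per culture. The groups were first-generation knockouts of the reverse transcriptase (mTERT KO), wild types of that line (mTERT WT), first-generation knockouts of the telomerase RNA (mTR KO) and wild types of that line (mTR WT). The series' design text describes 3 independent sets in which knockout and wild-type embryos were littermates, and it sets out to compare what the loss of either subunit does to gene expression. The labels do not say which part of either gene is deleted, nor how many embryos a culture came from. P-values therefore measure the spread between these cultures.

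Values are log2 summary signals of a probe set, differences are log2 values, and ± after a difference is the standard error of the linear model (limma, fitted to all 28853 probe sets, p adjusted by Benjamini-Hochberg over all of them, called at 5%). The background level of an array was the 95th percentile of its 1035 olfactory receptor probe sets, which lay between 4.93 and 5.09. Arrays correlated with each other between 0.984 and 0.997. All 12 fibroblast markers lay above background in every culture, while macrophage markers were also present, with 15 or 16 of 16 above background in each culture. The mean macrophage signal was 7.26 to 8.96 in mTERT KO, 7.57 to 9.18 in mTERT WT, 7.38 to 9.33 in mTR KO and 6.59 to 8.55 in mTR WT cultures. Bulk RNA cannot tell fewer cells of a type from less RNA per cell.

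The sequences upstream of Tert, the gene deleted in one of the lines, and of Dkc1 and Nop10, which apart from Tert had the widest spread over the cultures, are printed for reference. Each is the 250 bases before the annotated start in RefSeq, build GRCm38.p6, 5′ to 3′, at chr13:73626661-73626910 for Tert, chrX:75095604-75095853 for Dkc1 and chr2:112261676-112261925 for Nop10, all on the plus strand. Capitals mark matches to a GC box (CCGCCC), an E box (CACGTG) or a CCAAT box (CCAAT), searched on both strands.
Tert: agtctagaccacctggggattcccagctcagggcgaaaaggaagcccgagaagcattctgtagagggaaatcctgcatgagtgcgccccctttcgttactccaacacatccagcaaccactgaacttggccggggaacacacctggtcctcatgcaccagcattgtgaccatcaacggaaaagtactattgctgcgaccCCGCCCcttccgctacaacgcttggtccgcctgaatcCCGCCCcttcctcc
Dkc1: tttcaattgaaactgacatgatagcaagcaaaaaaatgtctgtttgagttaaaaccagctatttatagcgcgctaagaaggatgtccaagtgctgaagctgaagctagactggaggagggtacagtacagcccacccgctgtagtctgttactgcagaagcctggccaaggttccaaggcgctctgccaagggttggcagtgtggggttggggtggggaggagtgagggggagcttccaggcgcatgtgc
Nop10: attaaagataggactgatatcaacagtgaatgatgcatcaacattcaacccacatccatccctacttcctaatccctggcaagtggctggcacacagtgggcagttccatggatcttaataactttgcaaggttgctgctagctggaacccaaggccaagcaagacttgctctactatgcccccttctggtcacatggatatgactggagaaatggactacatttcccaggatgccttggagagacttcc
The Tert window held 2 GC boxes, 51 to 46 and 14 to 9 bases before the start, and no E box or CCAAT box. The Dkc1 and Nop10 windows held none of the 3 motifs. Of 32851 such windows of annotated mouse genes, 32.7% held a GC box, 6.02% an E box and 33.8% a CCAAT box, so these letters alone single out no member.

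Tert, at chr13:73626911-73649843, was the targeted gene of the mTERT line and the only member called in any comparison. Its signal was 4.99, 4.83 and 4.75 in mTERT KO cultures 1 to 3, against 5.72, 5.74 and 5.51 in mTERT WT cultures 1 to 3. The groups did not overlap, as for 5.97% of all probe sets in this comparison and for no other member, and every mTERT KO culture also lay below all 6 mTR cultures. Tert fell by 0.79 ± 0.08 in mTERT KO cultures, to 0.577 of the wild-type signal (95% interval of the difference −0.98 to −0.61, limma adjusted p = 0.0352). It was the only probe set called, 0.00347% of those tested. Genotype accounted for 93.9% of the variance of Tert over these 6 cultures. Only mTERT KO 1 remained above its background level, so the lower end of the scale is near: with signals below background set to background, the difference was −0.64 (adjusted p = 0.0532). The call also ended on leaving out any 1 of 10 of the 12 arrays (adjusted p up to 0.347), with the difference between −0.87 and −0.74. With the mTERT cultures paired by number it held (adjusted p = 0.0187).

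In the mTR line, Tert read 5.80, 5.69 and 5.80 in mTR KO cultures, against 5.79, 5.70 and 5.66 in mTR WT cultures. The groups overlapped, and the difference of 0.05 ± 0.08 did not pass (adjusted p = 0.928, 95% interval −0.13 to 0.24). The mTERT effect minus the mTR effect was −0.85 ± 0.12, which did not pass over all probe sets either (adjusted p = 0.404), with Tert first by p among the 28853. In this difference of effects 0 of 9 members were called, beside 0% of all probe sets, and 2 of 9, Tert and Nop10, had an unadjusted p below 0.05, beside 3.34%. The 9 cultures of the other groups spanned 5.51 to 5.80, all above background.

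Terc, at chr3:96414437-96414833, encodes a noncoding RNA and was the targeted gene of the mTR line. Its signal was 4.50, 4.73 and 4.57 in mTR KO cultures, against 4.65, 4.73 and 4.94 in mTR WT cultures. It read 4.77, 4.64 and 4.86 in mTERT KO cultures, against 4.67, 4.82 and 4.94 in mTERT WT cultures. All 12 values lay below the background level of their array, wild types included, so the probe set does not check the mTR labels. The difference was −0.17 ± 0.10 in mTR KO (adjusted p = 0.840) and −0.05 ± 0.10 in mTERT KO cultures (adjusted p = 1).

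**Figure D1:**
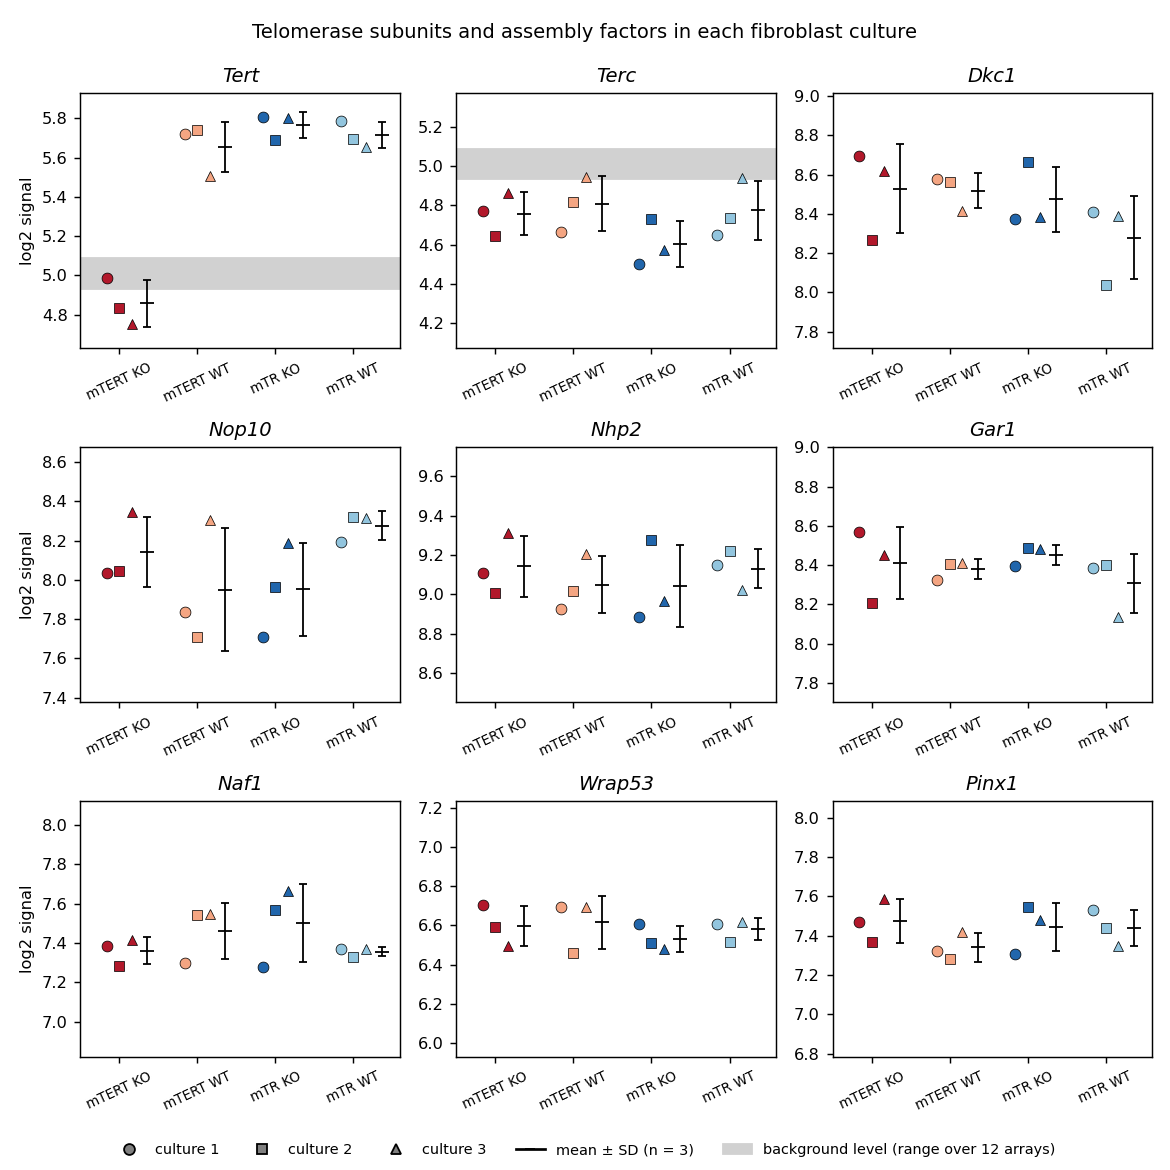
Log2 signal (y axis) of the 9 measured genes in each culture of the 4 groups (x axis), with the mean and SD of 3 cultures to the right of each group and a shared span of the y axis. Tert is low in the 3 mTERT KO cultures, from 4.75 to 4.99, Terc lies below the grey background level or at its lower edge, and the other 7 genes overlap between knockout and wild type except for Nop10 in the mTR line.

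The 4 proteins of the H/ACA core were all well above background, with 12 of 12 cultures for each gene. Dkc1 encodes dyskerin, the pseudouridine synthase of the core, whose human form is mutated in X-linked dyskeratosis congenita. Dkc1 lies at chrX:75095854-75109776, where its locus overlaps Mpp1 by 44 bases and a small nucleolar RNA gene by 118. Dkc1 read 8.69, 8.27 and 8.62 in mTERT KO cultures, against 8.58, 8.56 and 8.42 in mTERT WT cultures. It read 8.38, 8.66 and 8.38 in mTR KO cultures, against 8.41, 8.04 and 8.39 in mTR WT cultures. Both lines overlapped, and single cultures stood out: mTERT KO 2 was the lowest of its line and mTR WT 2 the lowest of all 12. The differences were 0.01 ± 0.13 in mTERT KO (adjusted p = 1) and 0.19 ± 0.13 in mTR KO cultures (adjusted p = 0.846, 95% interval −0.10 to 0.49).

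Nop10 encodes the smallest core protein, which binds dyskerin directly. It lies at chr2:112261926-112262898. Its signal was 8.03, 8.05 and 8.34 in mTERT KO cultures, against 7.84, 7.71 and 8.30 in mTERT WT cultures. It was 7.71, 7.96 and 8.18 in mTR KO cultures, against 8.19, 8.32 and 8.32 in mTR WT cultures. The mTR groups did not overlap, though the highest mTR KO culture and the lowest mTR WT culture were less than 0.01 apart. Nop10 was 1 of 9 members with groups that did not overlap in the mTR comparison, where 11.4% of all probe sets had this, so the count is no more than the background. The difference was −0.32 ± 0.16 in mTR KO cultures (adjusted p = 0.839) and 0.19 ± 0.16 in mTERT KO cultures (adjusted p = 1), neither of which passed. The signs were opposite, and the mTERT effect minus the mTR effect was 0.52 ± 0.22 (unadjusted p = 0.0420, adjusted p = 1.00). Within same-numbered mTERT cultures, the knockout was higher by 0.20, 0.34 and 0.04. The mean of mTR WT cultures, 8.28, was the highest of the 4 groups, and mTERT WT minus mTR WT was −0.33 ± 0.16 (adjusted p = 0.753), close in size to the mTR knockout difference.

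Nhp2 encodes an RNA-binding core protein and Gar1 the core protein that joins last, in exchange for NAF1. They lie at chr11:51619773-51623718, where Nhp2 overlaps Rmnd5b by 46 bases, and at chr3:129824912-129831407. Nhp2 read 9.11, 9.01 and 9.31 in mTERT KO cultures, against 8.92, 9.02 and 9.21 in mTERT WT cultures. It read 8.89, 9.28 and 8.96 in mTR KO cultures, against 9.15, 9.22 and 9.02 in mTR WT cultures. Culture 3 was the highest of both mTERT groups, whereas in mTR KO the highest was culture 2. Gar1 read 8.57, 8.21 and 8.45 in mTERT KO cultures, against 8.32, 8.40 and 8.41 in mTERT WT cultures. It read 8.40, 8.49 and 8.48 in mTR KO cultures, against 8.39, 8.40 and 8.14 in mTR WT cultures. All of these groups overlapped. Nhp2 differed by 0.09 ± 0.12 in mTERT KO and −0.09 ± 0.12 in mTR KO cultures, and Gar1 by 0.03 ± 0.10 in mTERT KO and 0.15 ± 0.10 in mTR KO cultures (adjusted p between 0.845 and 1).

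Naf1 encodes the assembly chaperone that occupies the GAR1 position while the particle matures, and lies at chr8:66859943-66890564. It read 7.39, 7.29 and 7.41 in mTERT KO cultures, against 7.30, 7.54 and 7.55 in mTERT WT cultures. It read 7.28, 7.57 and 7.66 in mTR KO cultures, against 7.37, 7.33 and 7.37 in mTR WT cultures. The mTR WT cultures had the smallest spread of any group, as their SD was 0.0235, whereas it was 0.199 in mTR KO cultures. Naf1 differed by −0.10 ± 0.10 in mTERT KO (adjusted p = 1) and 0.15 ± 0.10 in mTR KO cultures (adjusted p = 0.846).

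Wrap53 encodes TCAB1, the protein that in human cells carries telomerase RNA to Cajal bodies, nuclear compartments where the particle matures. It lies at chr11:69561754-69580250, where its locus overlaps the pseudogene Rps27-ps2 by 342 bases. Wrap53 read 6.70, 6.59 and 6.50 in mTERT KO cultures, against 6.70, 6.46 and 6.69 in mTERT WT cultures. It read 6.61, 6.51 and 6.48 in mTR KO cultures, against 6.61, 6.52 and 6.62 in mTR WT cultures. Over all 12 cultures it ranged over only 0.24, the least of the 9 genes, and its SD exceeded that of 21.6% of all probe sets. Pinx1 encodes a nucleolar protein that binds TERT and inhibits telomerase in human cells, and lies at chr14:63860277-63919862. It read 7.47, 7.37 and 7.59 in mTERT KO cultures, against 7.32, 7.28 and 7.42 in mTERT WT cultures. It read 7.31, 7.55 and 7.48 in mTR KO cultures, against 7.53, 7.44 and 7.35 in mTR WT cultures. Groups overlapped for both genes in each line.

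Pinx1 was the member with the second smallest p in the mTERT comparison, with a difference of 0.13 ± 0.09 (unadjusted p = 0.144, adjusted p = 1, 95% interval −0.05 to 0.32). Each mTERT KO culture lay above the wild type of its number, by 0.15, 0.09 and 0.17, and with the mTERT cultures paired it still did not pass (adjusted p = 1.00). In mTR KO cultures Pinx1 differed by 0.01 ± 0.09. Wrap53 differed by −0.02 ± 0.08 in mTERT KO and −0.05 ± 0.08 in mTR KO cultures (adjusted p = 1 and 0.930).

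**Figure D2:**
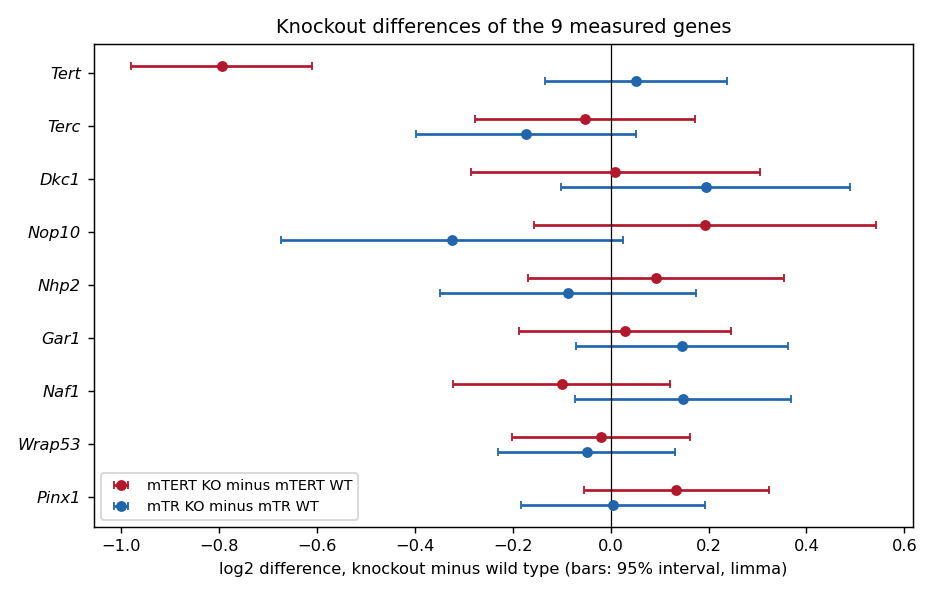
Log2 difference of knockout minus wild type (x axis) with its 95% interval for the 9 measured genes (rows) in the mTERT line (red) and the mTR line (blue). Only the mTERT difference of Tert, at −0.79, has an interval that leaves out 0. Nop10 has the widest intervals.

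Taken as a group, the 9 genes had a median difference of 0.01 in mTERT KO and of 0.01 in mTR KO cultures, beside medians of 0.00 over all probe sets in both. In the mTERT comparison 1 of 9 was called and it was lower, and 1 of 9, again Tert, had an unadjusted p below 0.05, beside 1.92% of all probe sets. In the mTR comparison 0 of 9 were called with limma, beside 0% of all probe sets, and 0 had an unadjusted p below 0.05, beside 5.82%. For the 7 members other than Tert and Terc, the 95% intervals reached at most −0.32 and 0.54 in the mTERT and −0.67 and 0.49 in the mTR comparison. The interval of Terc bounds no change, since its signal lay below background in all cultures. Between wild types of the lines 0 of 9 members were called with limma, beside 0.0173% of all probe sets, and 0 had an unadjusted p below 0.05, beside 6.78%. There 1 of 9, Dkc1, had groups that did not overlap (0.24 ± 0.13, adjusted p = 0.805), beside 13.1% of all probe sets.

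In each line culture number has 2 and genotype 1 of the 5 degrees of freedom among 6 cultures, which is 40% and 20%, so shares near these are what unrelated values give on average. In the mTERT line number accounted for 78.1% of the variance of Nhp2, 75.2% of that of Nop10, 63.4% of that of Terc and 53.5% of that of Pinx1, with a median of 55.6% over all probe sets. For Pinx1 genotype took 43.6% and the remainder only 2.95%. Number took 40.3% for Dkc1, 32.2% for Gar1 and 29.8% for Naf1, at or below its share of the degrees of freedom, and genotype took 23.3% for Naf1. In the mTR line, where the numbers did not pair the cultures, the share of number ran from 1.01% for Dkc1 to 67.7% for Nhp2, beside a median of 36.2%.

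**Figure D3:**
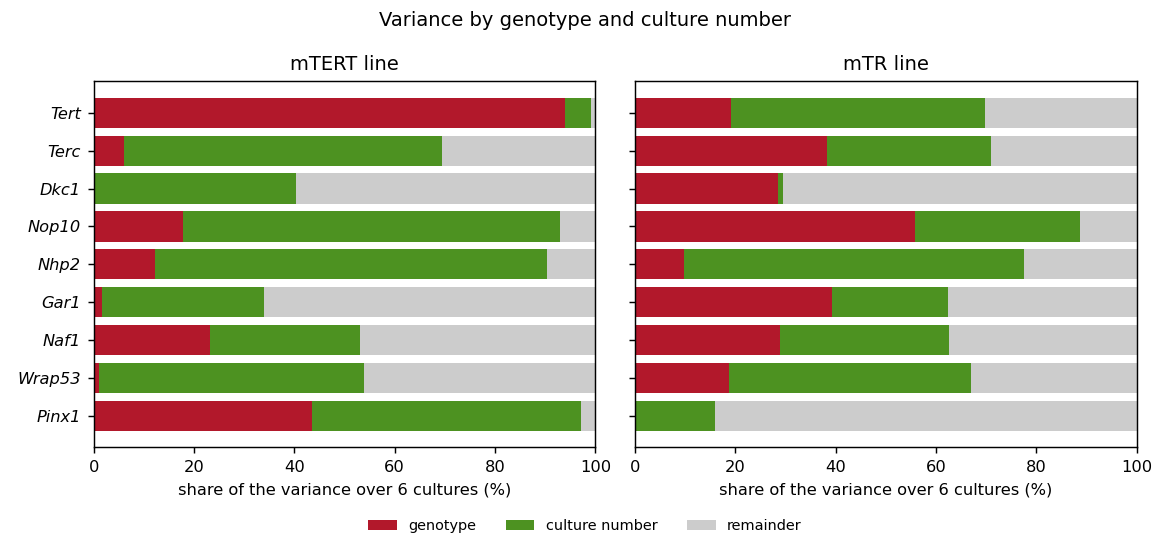
Share of the variance over the 6 cultures of a line (x axis, percent) that goes with genotype (red), with culture number (green) and with neither (grey) for the 9 measured genes, in the mTERT line (left) and the mTR line (right). Genotype takes 93.9% for Tert in the mTERT line, and number takes 75.2% for Nop10 and 78.1% for Nhp2 there.

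The members did not all move together, though some did. Deviations of the 12 cultures from their group means correlated positively in every pair of Nop10, Nhp2, Gar1, Naf1 and Pinx1. The lowest of these correlations was 0.16, for Nop10 and Gar1. It was 0.83 for Nhp2 and Pinx1, 0.64 for Gar1 and Pinx1 and 0.62 for Nop10 and Pinx1. These genes were picked from the same correlations. Terc, below background in all 12 cultures, also correlated positively with each of them, from 0.08 with Gar1 to 0.59 with Nhp2. Deviations correlated at −0.46 for Naf1 and Wrap53 and at −0.72 for Tert and Nop10. These values describe 12 arrays, of which the mTERT cultures go together by number. No value over pairs of all probe sets stands beside them.

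Of all probe sets of 1 gene with a mean above background, 13587 in number, those most like Tert over the 12 cultures were Arsk, an arylsulfatase gene (Pearson r = 0.92), and Sdha, a subunit of succinate dehydrogenase (r = 0.86). Both lie near Tert on chromosome 13 in GRCm38.p6, Sdha starting 0.695 Mb and Arsk 2.43 Mb from the start of Tert. Arsk read 6.91, 6.28 and 6.23 in mTERT KO cultures, against 7.17, 7.33 and 6.96 in mTERT WT cultures. Sdha read 10.07, 9.80 and 9.83 in mTERT KO cultures, against 10.14, 10.18 and 10.19 in mTERT WT cultures. In both genes all mTERT KO cultures lay below all 9 others, and mTERT KO 1 was the highest of the 3, as it was for Tert. Arsk and Sdha were picked for following Tert over these same cultures, so this likeness is no separate result. The next probe set in this order, Cast, named after its value was seen, also lies there, 1.07 Mb from the start of Tert (r = 0.83), and averaged 9.60 in mTERT KO and 9.82 in mTERT WT cultures. Of the 20 probe sets most like Tert these were the 3 on chromosome 13, which held 3.68% of the candidates with a position. For deviations from group means r was 0.76 for Arsk and 0.33 for Sdha.

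**Figure D4:**
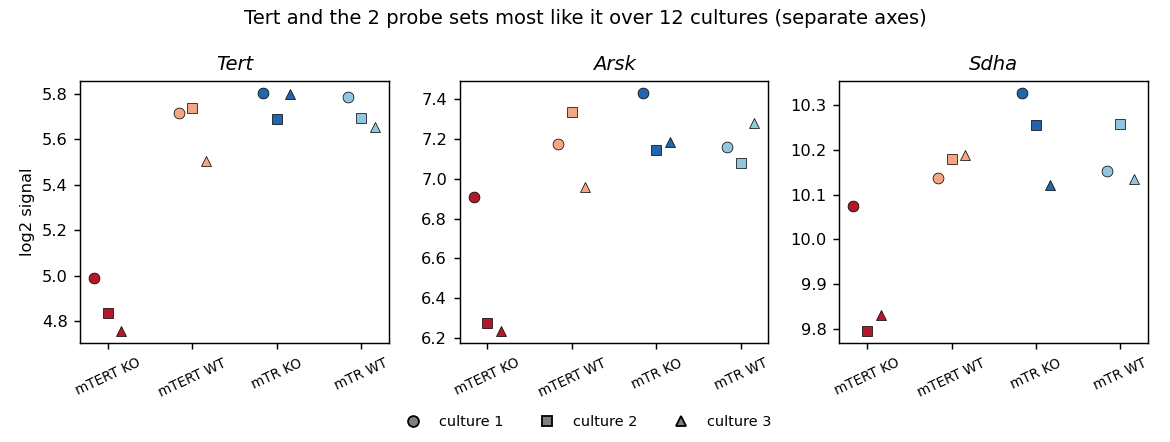
Log2 signal (y axes, each with its own span) of Tert, Arsk and Sdha in the 12 cultures by group (x axis), with marker shape for culture number. The 3 mTERT KO cultures are the lowest in each panel, with culture 1 the highest of these 3.

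Those most like Dkc1 were Dctd, a deoxycytidylate deaminase gene (r = 0.89), and Bcat1, a branched-chain aminotransferase gene (r = 0.85). Those most like Nop10 were Slc25a13, a mitochondrial carrier gene (r = 0.93), and Dync1li1, a dynein light intermediate chain gene (r = 0.90). For these 4 genes the correlation of deviations from group means was between 0.80 and 0.93. Slc25a13 read 7.01, 7.31 and 7.33 in mTR KO cultures, against 7.46, 7.55 and 7.69 in mTR WT cultures. These groups did not overlap, as for Nop10 and for 11.4% of all probe sets. Dync1li1 read 9.34, 9.54 and 9.64 in mTR KO cultures, against 9.62, 9.67 and 9.60 in mTR WT cultures, which overlapped. Both genes were picked for following Nop10 over these same cultures, so a shared pattern is no separate result.

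Genes that act with the members were taken from lists of assembly and folding factors, RNA processing and decay factors, telomere recruitment factors and promoter factors. With limma 0 of their 80 measured genes were called in either knockout comparison. An unadjusted p below 0.05 was found for 0 of 80 in mTERT KO cultures, beside 1.92% of all probe sets, and for 2 of 80, Ncbp2 and Mxd4, in mTR KO cultures, beside 5.82%. Groups did not overlap for 1 of 80, Cct4, in the mTERT comparison, beside 5.97% of all probe sets, and for 9 of 80 in the mTR comparison, which is 11.3% beside 11.4% of all probe sets. Those 9 included Ncbp2, Zfc3h1, Hnrnpc, Hnrnpa2b1, Max, Mxd4 and Ctnnb1. Of 23 assembly and folding genes, all above background in at least 6 cultures, 12 had a positive and 11 a negative difference in mTERT KO cultures (median 0.00), and 10 and 13 in mTR KO cultures (median −0.02). The smallest p in mTERT KO cultures belonged to Shq1, the chaperone that holds dyskerin before assembly (0.17 ± 0.09), Cct4, a subunit of the TRiC chaperonin that folds TCAB1 (−0.10 ± 0.06), and Gnl3, the gene of nucleostemin (0.09 ± 0.08). In mTR KO cultures it belonged to Gnl3l (−0.20 ± 0.12), Ptges3, the HSP90 cochaperone p23 (0.10 ± 0.06), and Nvl, an AAA-type ATPase (0.17 ± 0.10). The adjusted p was 1 for the mTERT and 0.840 for the mTR differences.

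Of 17 RNA processing and decay genes 11 were positive in each knockout, with medians of 0.04 in mTERT KO and 0.02 in mTR KO cultures. Ncbp2, a subunit of the nuclear cap-binding complex, was −0.20 ± 0.07 in mTR KO cultures (unadjusted p = 0.0139, adjusted p = 0.839). Zfc3h1, a component of the exosome-targeting PAXT connection, was 0.20 ± 0.11 there, and Rbm7, of the NEXT complex, 0.15 ± 0.08. In mTERT KO cultures Mtrex, the helicase of the nuclear exosome, was 0.16 ± 0.08, Rbm7 0.13 ± 0.08 and Exosc10 0.07 ± 0.07 (adjusted p = 1).

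Of 17 telomere recruitment and regulation genes 14 were positive in mTERT KO and 10 in mTR KO cultures, with medians of 0.07 in mTERT KO and 0.05 in mTR KO cultures. In mTERT KO cultures Ybx1 was 0.13 ± 0.08, Pif1, a helicase that removes telomerase from DNA ends in yeast, 0.15 ± 0.13, and Pot1b, a shelterin gene, 0.13 ± 0.11 (adjusted p = 1). In mTR KO cultures Hnrnpa2b1 was 0.18 ± 0.10, Hnrnpc −0.15 ± 0.08 and Ssb, the La protein gene, 0.11 ± 0.07 (adjusted p between 0.840 and 0.845).

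Of 23 promoter factors 13 were positive in mTERT KO and 11 in mTR KO cultures, with medians of 0.02 in mTERT KO and −0.0033 in mTR KO cultures. In mTR KO cultures Max, the partner of MYC at E boxes, was −0.15 ± 0.07, Mxd4, a repressor that competes with MYC for MAX, −0.17 ± 0.08 (unadjusted p = 0.0420) and Ctnnb1, the gene of beta-catenin, −0.10 ± 0.05. The adjusted p was 0.839 for Max and Mxd4 and 0.840 for Ctnnb1. In mTERT KO cultures Wt1 was −0.28 ± 0.20, Usf1 0.12 ± 0.10 and Usf2 −0.08 ± 0.07 (adjusted p = 1).

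Small nucleolar and Cajal body RNAs of the H/ACA class bind the same core proteins as Terc, and the C/D class binds others. Of 23 RNAs listed here as H/ACA 21 had a positive difference in mTERT KO cultures (median 0.11), and of 31 listed as C/D 27 did (median 0.10). The class of single RNAs in these lists, such as Scarna17 among the H/ACA RNAs, was not checked. With limma 0 of either class were called, and 1 of 23 and 2 of 31 were higher at an unadjusted p below 0.05, beside 0.96% of all probe sets. The mean H/ACA signal was 6.47, 6.48 and 6.16 in mTERT KO cultures, against 6.20, 6.55 and 6.02 in mTERT WT cultures, so the groups overlapped and number 2 went the other way. The mean C/D signal was 6.99, 6.92 and 6.60 in mTERT KO cultures, against 6.65, 6.99 and 6.50 in mTERT WT cultures, again with the knockout higher in numbers 1 and 3 and lower in number 2. Snora41 was 0.45 ± 0.18, Snora52 0.26 ± 0.14 and Scarna8, below background in all cultures, 0.16 ± 0.10 in mTERT KO cultures. Among C/D RNAs Snord104 was 0.33 ± 0.14, Snord38a 0.25 ± 0.11 and Snord22 0.34 ± 0.20 there (adjusted p = 1 for all 6). In mTR KO cultures 12 of 23 H/ACA and 21 of 31 C/D RNAs were positive, with medians of 0.01 and 0.09. Snora73b was −0.22 ± 0.11, Snora74a −0.26 ± 0.15 and Snora75 0.49 ± 0.29, and among C/D RNAs Snord82 was 0.48 ± 0.23, Snord118, below background in all cultures, −0.19 ± 0.10 and Snord104 −0.27 ± 0.14 (adjusted p of 0.839 or 0.840). Of these 6, Snora73b, Snora74a and Snord118 had groups that did not overlap. The 6 were picked for their small p, so this count cannot be set against the 11.4% of all probe sets. Many such RNAs have close copies and lie in introns of host genes, so a probe set may not read 1 RNA alone.

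**Figure D5:**
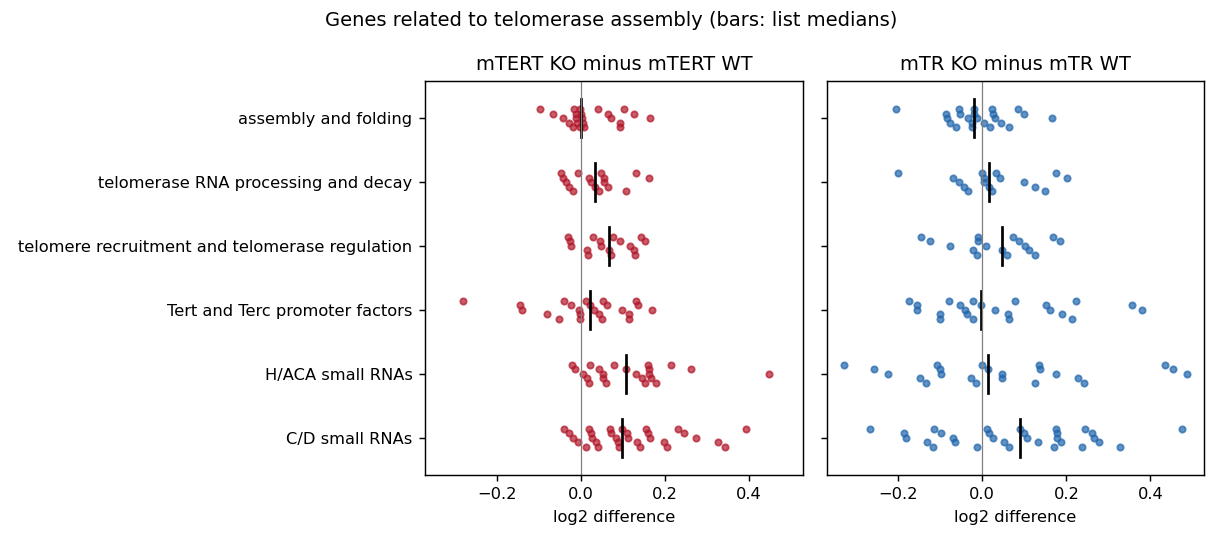
Log2 difference of knockout minus wild type (x axis) for each gene of 6 related lists (rows), in mTERT KO (left) and mTR KO cultures (right), with black bars at the list medians. No gene was called in either comparison, and the H/ACA and C/D medians of 0.11 and 0.10 in mTERT KO cultures are the farthest from 0.

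Proliferation and macrophage content also varied between cultures. All 9 measured proliferation markers had a positive difference in mTR KO cultures (median 0.11), and their mean signal ran from 8.15 to 9.01 in mTR KO, against 8.24 to 8.53 in mTR WT cultures. In the mTERT line it ran from 8.49 to 8.81 in mTERT KO, against 8.49 to 8.73 in mTERT WT cultures. All 16 macrophage markers had a positive difference in mTR KO cultures (median 0.73), and 15 of 16 a negative one in mTERT KO cultures (median −0.14). With limma 0 of these markers were called, and 0 had an unadjusted p below 0.05. Endothelial markers lay below background except for Emcn, with at most 1 of 6 above it in any culture. Emcn was above background in 3 cultures, at 5.42 in mTERT WT 3, 5.14 in mTR KO 3 and 5.70 in mTR WT 2. Of 6 epithelial markers 3 or 4 lay above background in each culture, Krt8 and Cldn4 in all 12 and Epcam and Esrp1 in none. Their mean signal was 4.94 to 5.18 in mTERT KO, 5.00 to 5.33 in mTERT WT, 4.86 to 5.21 in mTR KO and 5.02 to 5.33 in mTR WT cultures, and with limma 0 of 6 were called or had an unadjusted p below 0.05. The part of proliferation or macrophage content in the mTR differences of Dkc1 and Nop10 was not tested.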

How the data were processed

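RNA of 12 cultures had been hybridised to 1 array each. The authors deposited log2 summary signals for 28853 probe sets, already on a common scale: column quantiles differed by at most 0.084. PLIER, a probe summary method, Expression Console and GCOS 1.4 are named per the submitters' processing notes, which give no order of use; the normalization and the genome build are not given in the sources used here, and positions are those of RefSeq genes on GRCm38.p6. The platform annotation gave 1 symbol for 21789 probe sets, several for 1621 and none for 5443, and no symbol changed through its gene ID.

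A linear model of 4 group means was fitted with limma 3.58.1 in R 4.3.3 (8 residual and 3.14 prior degrees of freedom), without filter or block. No column belonged to samples of another series, and the number of arrays limits the precision. Members and lists were chosen with earlier results of these data known. Named genes were all members, the 3 of each related list with the smallest p in each knockout comparison, the 2 probe sets most like Tert, Dkc1 and Nop10, and markers. Some listed related genes and markers were not analysed here.

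Deviations from group means over the 14426 brighter probe sets correlated at 0.674, 0.733 and 0.790 for same-numbered mTERT cultures and at −0.156, 0.289 and −0.377 for same-numbered mTR cultures. The numbers were therefore taken as pairs in the mTERT line only, from the data. The main fit had no block, so its standard errors and p-values in the mTERT comparison include the spread between numbers. Across numbers, mTR KO 1 correlated with mTR WT 3 at 0.372 and mTR KO 3 with mTR WT 1 at 0.319. The other differently numbered mTR pairs lay between −0.239 and −0.0047. The mTR cultures may therefore pair otherwise than by number, which was not tested, and no fit used such pairs. Alternatives were quantile normalization, median centring, leaving out dim probe sets, a trended and robust variance, the replicate number as a block, the 6 arrays of a line alone, and each array left out in turn. On simulated data of 28853 probe sets, log2 changes of 0.5, 1 and 2 in the mTERT comparison were recovered in 52.2, 95.5 and 98.5%, with 9 false calls. The simulated noise was independent between cultures, whereas the real mTERT cultures go together by number. In the simulation 200 probe sets were changed, which eases the adjusted threshold, whereas 1 was called in the data. These percentages check the code and do not give the power of the real comparison. Figures were drawn with matplotlib 3.10.9.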

Additional observations from a re-analysis of the deposited data

How the results depend on the processing

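The Tert difference of −0.79 in mTERT KO cultures kept its sign under every alternative run. Its adjusted p passed after median centring (0.0452), without dim probe sets (0.0398), with a trended and robust variance (0.0460) and with the mTERT cultures as a replicate block (0.0187). It did not pass after quantile normalization (−0.80, 0.0504), with both lines as a replicate block (−0.79, 0.134), with the 6 arrays of the line alone (−0.79, 1) or, chosen after the data were seen, with values below background set to background (−0.64, 0.0532). Leaving out 1 array gave −0.87 to −0.74, and the call remained without mTERT KO 1 (0.0247) or mTERT WT 3 only; it ended without each of the other 10 arrays. Probe sets called in the mTERT comparison numbered 1, and 0 after quantile normalization, with both lines as a replicate block and with the 6 arrays alone, and 0 to 2 when 1 array was left out. Members called over the 4 contrasts numbered 1, and 0 after quantile normalization or with the background limit, and 0 to 1 when 1 array was left out. Calls between wild types numbered 5, and 0 after quantile normalization, and 0 to 11 when 1 array was left out; those of the mTR comparison numbered 0, and 0 to 3 when 1 array was left out. The highest counts of these 2 comparisons, 11 and 3, came without mTR WT 2. The Terc difference in mTR KO cultures ran from −0.24 to −0.09 when 1 array was left out. With values set to background it was 0.0012. That value is only a difference between array background levels, since every Terc value lay below them, and it says nothing about Terc. Without dim probe sets the difference had no value, as Terc was left out. The cause of the other changes was not tested.

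The other 34 member results gave 641 alternative values, of which 0 passed 5% and 22 changed sign, all from differences of at most 0.12. Pinx1 in mTR KO cultures was −0.0069 after median centring, and the mTERT minus mTR effect of Terc was −0.046 with values set to background. This Terc value too is only a difference between array background levels. The others changed sign on leaving out 1 array. In the mTERT comparison these gave −0.12 to 0.015 for Terc, −0.074 to 0.14 for Dkc1, −0.049 to 0.13 for Gar1 and −0.098 to 0.030 for Wrap53. Pinx1 ran from −0.045 to 0.074 in the mTR comparison, and Wrap53 from −0.049 to 0.079 for the mTERT minus the mTR effect. Between wild types the ranges were −0.10 to 0.015 for Tert, −0.033 to 0.12 for Terc, −0.013 to 0.12 for Gar1 and −0.0040 to 0.11 for Wrap53. The alternative of averaging several probe sets of a gene had no effect to show, since each member had 1.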
